A study of Mus musculus with 6 samples.

Results

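The microfibril and elastic fibre genes examined here were a named set of 10 genes, of which 9 had a probe set, among 19938 genes measured. They were Fbn2 (fibrillin-2), the microfibril-associated glycoprotein genes Mfap2, Mfap4 and Mfap5, the elastin gene Eln, and the fibulin genes Fbln1, Fbln2, Fbln5 and Efemp1 (fibulin-3). Fbn1 was named too, but no probe set carried its symbol in the probe annotation, and it was not analysed here. Members were found by gene symbol, and each of the 9 had 1 probe set. Expression was compared between 3 mouse osteosarcoma cell lines and 3 cultures of mouse osteoblasts, each hybridised to its own Affymetrix Mouse Gene ST array. The osteosarcoma lines OS_493H, OS_494H and OS_716H were of genotype Rb fl/fl, p53 fl/fl and Osx-Cre+ on a C57Bl6 background. In these animals Cre recombinase is driven by the promoter of Osterix (Sp7), a transcription factor of the osteoblast lineage, and each line came from 1 primary tumour, in the hip for OS_493H and OS_494H and in the tibia for OS_716H. The labels give the ages as 188, 190 and 226, with no unit, and the sexes as F, M and F. The osteoblasts were KUSA4b10 cells, a bone marrow stromal line of C57Bl6 origin, differentiated with ascorbate (50 ug/ml) over 21 days from confluence. No engineered allele is given for them, and they are named below as cultures 1 to 3. Their arrays also carried adipocyte marker transcripts at high log2 values, with culture means of 11.88 for Adipoq and 12.32 for Fabp4. All samples share the same growth medium in the labels, RPMI with fetal calf serum. The labels give no ascorbate, confluence or day for the lines, so growth state and tumour origin cannot be told apart. The 3 cultures are 1 cell line. Their titles carry a replicate number each and a number of their own after the letters Ex, which the labels do not explain, so whether they were grown as separate experiments is not stated. The p-values measure only the spread between these samples, which may be technical for the cultures.

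Microfibrils are thin extracellular filaments built from fibrillins, with the small glycoproteins Mfap2 (MAGP-1) and Mfap5 (MAGP-2) bound along them. In elastic tissues they form a scaffold on which tropoelastin, the soluble product of Eln, is laid down with the help of fibulins and joined by lysyl oxidases into an elastic fibre. In bone, which holds little elastin, fibrillin microfibrils are known chiefly for binding latent TGF-beta and bone morphogenetic proteins in the matrix.

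Values are RMA-processed log2 expression, on which a step of 1 is a doubling, and the array medians lay between 7.45 and 7.58. No detection call was used, so whether a low value lies above background cannot be told. Rb1, a targeted gene, was lower in each line (9.26, 9.70 and 9.87) than in each culture (10.66 to 10.68). The array labelled OS_716H, from a female, carried the Y-linked transcript Eif2s3y at 10.11, against 9.96 in the male line OS_494H and 4.08 in OS_493H, and its Xist value was 5.50 against 12.62 in OS_493H. The library labelled OS_716H therefore goes against its label for sex, and for the genes named below the result is also given without it where that changes a call. Cultures 1 and 3 lay closer to each other (Pearson's r = 0.997 across genes, which are not independent replicates) than to culture 2 (0.993 and 0.994).

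Of the 9 members, 6 were higher in the osteosarcoma lines, relative to the cultures, and 0 were lower (limma, with an adjusted p under 0.05 after Benjamini-Hochberg correction over every gene). At an unadjusted p under 0.05 the same 6 were higher and 0 lower, a threshold at which all genes were not counted. At the adjusted threshold, 13.2% (2622) of all 19938 genes were called higher and 11.4% (2274) lower. After median centring 3129 were called higher and 1800 lower. The members that rose were Mfap5, Fbn2, Fbln1, Fbln2, Fbln5 and Efemp1, by 15.5-, 13.3-, 4.97-, 2.62-, 2.39- and 2.31-fold. Mfap2, Mfap4 and Eln did not pass the test. The median log2 difference of the 9 members was 1.26, and that over all genes was -0.02. For the same 6 genes every line lay above every culture, a pattern that 20.5% of all genes showed. All 6 rose at least 2-fold, and 4.07% of all genes were both called higher and at least 2-fold up. Among all genes ranked by size of rise, Mfap5 stood at rank 10, Fbn2 at 15 and Fbln1 at 148. The members share a contrast with the rest of the table in which 24.6% of genes were called, and they were named with earlier results of these arrays known, so these shares are descriptions.

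**Figure D1:**
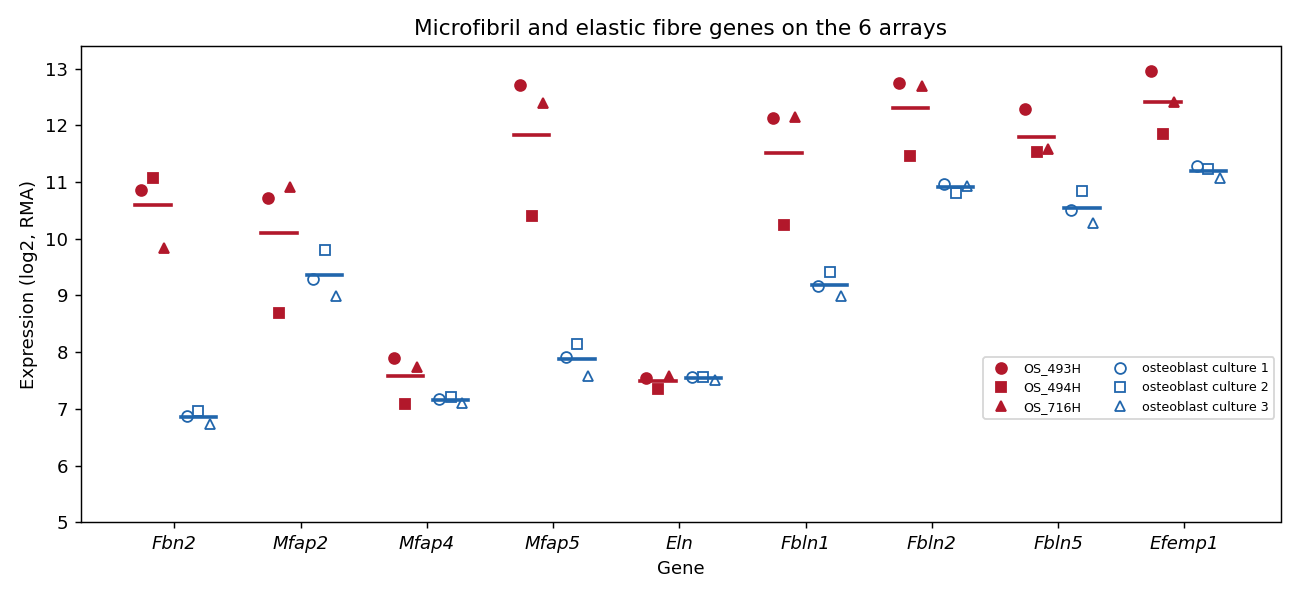
Expression of the 9 microfibril and elastic fibre genes on each array. The vertical axis is the RMA log2 value, filled red symbols are the 3 osteosarcoma lines, open blue symbols the 3 osteoblast cultures, and horizontal bars the group means (n = 3 each). For Fbn2 the lines sit between 9.84 and 11.07 and the cultures between 6.73 and 6.97, whereas the Eln values of all 6 arrays lie between 7.35 and 7.58.

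Promoter sequences are shown for 3 of the fibulin genes that rose together, Fbln1, Fbln5 and Efemp1, because these were the called members for which the RefSeq promoter table (GRCm38.p6) held bases upstream of the whole annotated gene. Of the 9 measured members, 5 had an entry in that table. Each line reads 5′ to 3′ on the gene's strand and ends at the last base before the annotated gene. Capitals mark matches, on either strand, to 5 searched motifs: the TATA box TATAAA, the GC box GGGCGG, the CCAAT box CCAAT, the AP-1 site TGANTCA and the E-box CACGTG.
Fbln1: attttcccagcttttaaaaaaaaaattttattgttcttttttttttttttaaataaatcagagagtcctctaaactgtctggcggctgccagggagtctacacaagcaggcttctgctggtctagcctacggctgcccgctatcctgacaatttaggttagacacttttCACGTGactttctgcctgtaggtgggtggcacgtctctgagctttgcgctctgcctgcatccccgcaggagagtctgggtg
Fbln5: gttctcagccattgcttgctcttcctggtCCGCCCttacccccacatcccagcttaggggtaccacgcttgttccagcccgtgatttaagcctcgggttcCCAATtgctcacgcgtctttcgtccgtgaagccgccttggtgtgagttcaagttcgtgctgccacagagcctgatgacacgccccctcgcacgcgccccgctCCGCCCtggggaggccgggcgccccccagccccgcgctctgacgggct
Efemp1: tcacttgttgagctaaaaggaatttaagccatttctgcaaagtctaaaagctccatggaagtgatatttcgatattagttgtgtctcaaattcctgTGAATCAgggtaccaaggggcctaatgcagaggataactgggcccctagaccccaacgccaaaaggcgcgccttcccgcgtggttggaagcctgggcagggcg

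The Fbln1 window covers 250 bases at chr15:85205699-85205948 (plus strand), that of Fbln5 250 bases at chr12:101819120-101819369 (minus strand) and that of Efemp1 199 bases at chr11:28852955-28853153 (plus strand). Fbln1 held 1 E-box match, beginning 81 bases before the gene, and 6.02% of all 32851 promoters of that length held one. Fbln5 held 2 GC box matches, 221 and 48 bases before the gene, and 1 CCAAT match at 150 bases. GC boxes occurred in 32.7% and CCAAT boxes in 33.8% of all promoters over 250 bases. Efemp1 held 1 AP-1 match, 103 bases before the gene, found in 5.55% of all promoters over 199 bases. None of the 3 windows held the letters TATAAA, which 12.4% of promoters held over 250 bases and 9.11% over 199 bases. No motif was found in more than 1 of the 3 windows. The G and C content was 46.4% for Fbln1, 65.2% for Fbln5 and 49.7% for Efemp1, against 53.2% over all promoters. These matches describe the letters only, since factor binding was not measured.

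Fbn2 encodes a fibrillin, the backbone protein of microfibrils, known mainly from developing tissues. Its log2 level stood at 10.86 in OS_493H, 11.07 in OS_494H and 9.84 in OS_716H, against 6.88, 6.97 and 6.73 in cultures 1, 2 and 3. The lowest line stood 2.87 log2 units above the highest culture, and the cultures differed from each other by at most 0.24. The group means were 10.59 ± 0.66 in the lines and 6.86 ± 0.12 in the cultures (SD, n = 3 each), a difference of 3.73 ± 0.31 on the log2 scale (SE, adjusted p = 8.01e-04 by limma). The culture values lay below the median of all values (7.53), and whether they lay above background cannot be told. The size of the difference is therefore uncertain. Fbn2 kept its call whichever array was left out, with differences of 3.49 to 4.11.

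Of the microfibril-associated glycoproteins, Mfap5 was higher in the lines, while Mfap2 and Mfap4 did not pass the test. Mfap5 binds fibrillin and carries an integrin recognition motif. Its log2 level stood at 12.71 in OS_493H, 10.41 in OS_494H and 12.39 in OS_716H, against 7.91, 8.14 and 7.58 in cultures 1, 2 and 3. All lines lay above all cultures, but OS_494H stood about 2 log2 units below the other lines, at differences of 2.30 from OS_493H and 1.98 from OS_716H. The means were 11.83 ± 1.25 in the lines and 7.88 ± 0.28 in the cultures (SD, n = 3 each), with a difference of 3.96 ± 0.58 on the log2 scale (SE, adjusted p = 0.00415 by limma). It was called on leaving out any 1 array, with differences of 3.52 to 4.67.

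Mfap2 encodes MAGP-1, the constitutive small glycoprotein of most fibrillin microfibrils. Its log2 level stood at 10.72 in OS_493H, 8.69 in OS_494H and 10.91 in OS_716H, against 9.29, 9.80 and 9.00 in the cultures. OS_493H and OS_716H lay above every culture and OS_494H below every culture, so the groups overlapped. The means were 10.11 ± 1.23 and 9.36 ± 0.41 (SD, n = 3 each) in lines and cultures, with a difference of 0.74 that did not pass (limma adjusted p = 0.43) and a 95% interval from -0.66 to 2.15. Without OS_494H the difference was 1.45 and passed (adjusted p = 0.00718). Mfap4, a fibrinogen-domain protein that binds microfibrils and tropoelastin, stood at 7.89, 7.09 and 7.75 in OS_493H, OS_494H and OS_716H and at 7.17, 7.21 and 7.10 in the cultures. For Mfap4, OS_494H (7.0936) lay level with the lowest culture (culture 3, 7.0957), and the other lines lay above all cultures. Its difference of 0.42 did not pass (limma adjusted p = 0.194, 95% interval -0.06 to 0.91), but passed without OS_494H (0.66, adjusted p = 0.00405) and with array weights (0.55, adjusted p = 0.0381).

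Eln, the gene for the elastic core protein itself, was at like values on all arrays. Its log2 level stood at 7.54 in OS_493H, 7.35 in OS_494H and 7.58 in OS_716H, against 7.56, 7.57 and 7.50 in the cultures. The means were 7.49 ± 0.12 and 7.54 ± 0.04 (SD, n = 3 each) in lines and cultures. The difference of -0.05 ± 0.08 (SE) did not pass (limma adjusted p = 0.703), and its sign turned to 0.01 after quantile normalisation or median centring and without OS_494H. The 95% interval from -0.26 to 0.15 leaves out a 2-fold change of the array value in either direction, though a probe set near background can hide a change of the transcript.

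**Figure D2:**
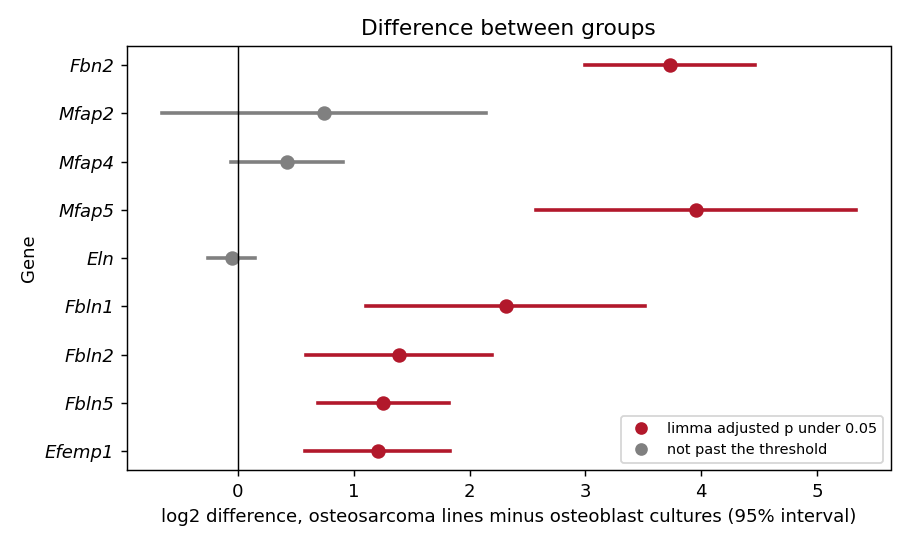
Log2 difference between osteosarcoma lines and osteoblast cultures for each member. Points are the differences and bars their 95% intervals from limma (n = 3 lines and 3 cultures). Red genes passed an adjusted p under 0.05 and grey genes did not. The interval of Eln, from -0.26 to 0.15, is the narrowest, and that of Mfap5 runs from 2.57 to 5.34.

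All 4 fibulin members rose in the lines. Fibulins are secreted glycoproteins with repeated calcium-binding EGF domains that link elastic fibres, microfibrils and basement membranes. Fbln1, found in basement membranes and in the core of elastic fibres, was at log2 levels 12.12 in OS_493H, 10.24 in OS_494H and 12.15 in OS_716H, against 9.16, 9.42 and 9.00 in the cultures. The lines lay above the cultures, OS_494H by only 0.83 over the highest culture. Lines and cultures differed by 2.31 ± 0.50 on the log2 scale (SE, adjusted p = 0.0179 by limma), and it lost its call without OS_493H (2.00, adjusted p = 0.0551), culture 1 (2.30, 0.0679) or culture 3 (2.21, 0.0707). The probe set gives 1 value for the gene and does not separate its splice forms.

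Fbln2, which binds fibrillin and elastin, stood at 12.75 in OS_493H, 11.46 in OS_494H and 12.69 in OS_716H, against 10.97, 10.81 and 10.94 in the cultures. The cultures spanned 0.16 and the lines 1.29. The groups differed by 1.39 ± 0.34 (SE, limma adjusted p = 0.0258), and OS_494H was the sole array whose removal kept the call (adjusted p = 3.17e-04 without it), while without any other array the adjusted p was 0.066 to 0.0822. Fbln5 tethers tropoelastin to cell-surface integrins and microfibrils and binds the cross-linking enzyme Loxl1. It was at 12.28 in OS_493H, 11.53 in OS_494H and 11.58 in OS_716H, against 10.50, 10.85 and 10.28 in the cultures, so the lowest line exceeded the highest culture by 0.68. The difference of 1.26 ± 0.24 (SE, limma adjusted p = 0.0106) stayed past the threshold on leaving out any 1 array (adjusted p up to 0.0483).

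Efemp1, or fibulin-3, is a fibulin of fascia and other connective tissue that binds the protease inhibitor TIMP3. Its log2 level stood at 12.96 in OS_493H, 11.85 in OS_494H and 12.41 in OS_716H, against 11.28, 11.24 and 11.07 in the cultures. No line overlapped a culture, and the smallest gap was 0.56. The difference of 1.21 ± 0.26 (SE, limma adjusted p = 0.0175) lost its call without any 1 culture (adjusted p 0.0516 to 0.0706) and kept it without any 1 line. Without culture 1 or without culture 3, 3 of the 9 members were called higher, and 7.69% and 8.08% of all genes were. The 3 members called in each of these fits were Fbn2, Mfap5 and Fbln5.

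The lines differed from each other more than the cultures did. The SD over the 3 lines exceeded that over the 3 cultures for each of the 9 members, by 1.46 times for Fbln5 to 8.59 times for Fbln2. Among all genes the median SD was 0.13 over lines and 0.09 over cultures, while the 6 called members had a median SD of 0.69 over the lines. All genes were not matched to the members for level, and the share of them with a larger SD over the lines was not counted. OS_494H was the lowest line for 8 of the 9 members. Fbn2 was the exception, with OS_494H as its highest line. Over all genes OS_494H was lowest in 29.8%, and over genes called higher in the lines in 24.3%. Compared with OS_494H, Mfap5 was 4.92-fold higher in OS_493H and 3.95-fold higher in OS_716H, Mfap2 4.09- and 4.65-fold, Fbln1 3.69- and 3.75-fold and Fbln2 2.45- and 2.34-fold. OS_493H and OS_716H lay within 0.35 log2 units of each other for all members except Fbn2 (1.02), Fbln5 (0.70) and Efemp1 (0.55). With 1 array per line these differences between lines have no replicate check, and no test of them was made.

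**Figure D3:**
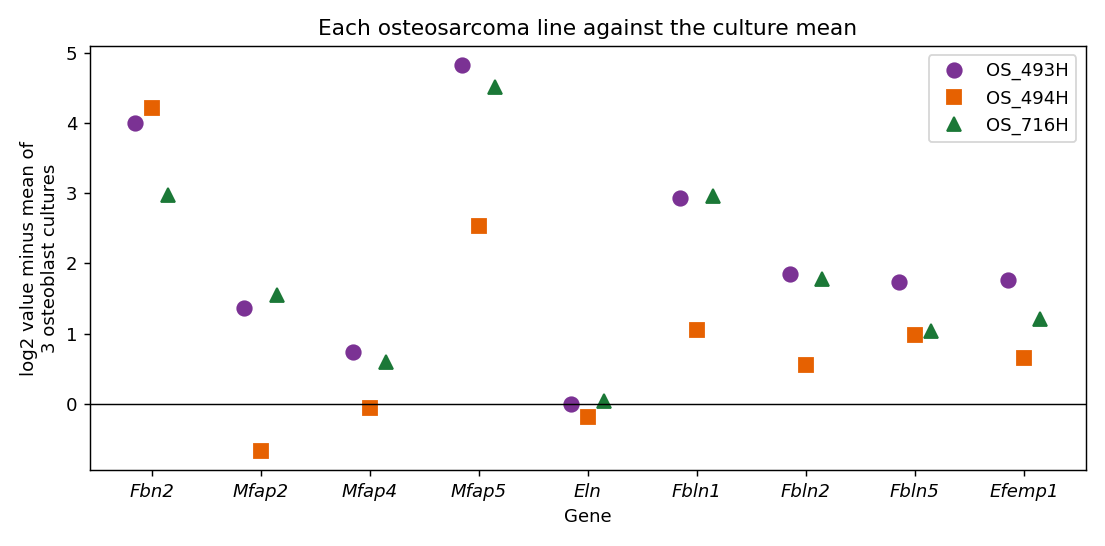
Log2 value of each osteosarcoma line minus the mean of the 3 osteoblast cultures, for each member (1 array per line). The line at 0 is the culture mean. OS_494H (orange squares) is the lowest line for every gene except Fbn2, and lies at -0.67 for Mfap2 and at 2.53 for Mfap5.

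Among genes that build or cross-link elastic fibres, calls were made in both directions, as they were over all genes. Of 13 measured genes of this list, 4 rose (30.8%), 2 fell (15.4%) and 7 did not pass, against 13.2% higher and 11.4% lower over all genes. Loxl2, Efemp2 and Fkbp10 were not analysed here. Lysyl oxidases oxidise lysines of elastin and collagen so that cross-links form. Lox was at 14.04, 13.59 and 13.85 in OS_493H, OS_494H and OS_716H, against 12.47, 12.90 and 12.37 in the cultures, a difference of 1.24 ± 0.17 on the log2 scale (SE, adjusted p = 0.00362 by limma). Loxl3 rose 2.64-fold and Loxl1, the family member tied to elastic fibres, 1.78-fold, whereas Loxl4 fell 3.08-fold. Each of these 4 calls held on leaving out any 1 array. The fibulin-family gene Fbln7 went against the other fibulins, at 8.36, 8.19 and 8.61 in the lines, against 11.06, 10.28 and 10.76 in the cultures, a difference of -2.31 ± 0.21 on the log2 scale (SE, adjusted p = 0.00102 by limma).

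Emilins are glycoproteins at the interface of elastin and microfibrils. Emilin2 rose 2.21-fold, a call kept without OS_494H and lost without any other array (adjusted p up to 0.132). Emilin1 differed by 0.58 (limma adjusted p = 0.0762, and 0.0488 without OS_493H) and Emilin3 by -0.23. Npnt, an integrin ligand of the matrix, differed by -1.34 with culture 2 at 12.50 and cultures 1 and 3 at 10.66 each, and did not pass (adjusted p = 0.12). Mmrn1, Mmrn2, Hmcn1 and Hmcn2 differed by -0.09 to 0.14 and did not pass either.

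Latent TGF-beta binding proteins anchor latent TGF-beta to fibrillin microfibrils. Of 9 measured genes of that list, 1 rose (11.1%) and 2 fell (22.2%), shares near those over all genes (13.2% and 11.4%). Ltbp1 was at 11.84, 12.16 and 11.84 in the lines, against 10.77, 11.13 and 10.63 in the cultures, a rise of 2.15-fold (limma adjusted p = 0.0037). Ltbp4, which also takes part in elastin assembly with fibulins, was at 7.89, 7.90 and 7.91 in the lines, against 9.50, 9.69 and 9.62 in the cultures, a fall of 3.25-fold (adjusted p = 1.71e-04). Tgfb1, the cytokine gene, fell 3.65-fold. These 3 calls held without any 1 array. Ltbp2, a binding partner of fibrillin and Fbln5, was at 10.40, 8.97 and 11.81 in OS_493H, OS_494H and OS_716H and at 9.21, 9.32 and 8.79 in the cultures. It shared the low value of OS_494H with Mfap2, and passed only without that line (adjusted p = 0.0158).

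Of 11 measured ADAMTS and ADAMTS-like genes, several of whose products act on or bind fibrillin microfibrils, 4 rose (36.4%) and 2 fell (18.2%), against 13.2% and 11.4% over all genes. Adamtsl4, a fibrillin-binding protein, rose 2.43-fold and Adamts6, a protease, 2.03-fold. Adamtsl3 rose 1.81-fold and Adamtsl1 1.77-fold. Thsd4, whose product (ADAMTSL6) promotes fibrillin-1 assembly, was at 7.11, 7.12 and 7.19 in the lines, against 8.43, 8.43 and 8.40 in the cultures, a fall of 2.43-fold (limma adjusted p = 2.50e-04). Adamtsl5 fell 2.39-fold. The calls of Adamtsl3 and Adamtsl5 were lost without culture 1 (adjusted p = 0.0574 and 0.0586).

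Among 10 measured matrix partners, perlecan (Hspg2) rose 1.79-fold and the small proteoglycan decorin (Dcn) fell 10.4-fold. Calls of fibronectin (Fn1, -0.28) and Col16a1 (0.29) were each lost on leaving out any 1 of 5 arrays (adjusted p up to 0.0958 and 0.14), Fn1 being kept without OS_716H and Col16a1 without culture 2. Versican (Vcan), a large proteoglycan that binds fibrillin and fibulins, was at 13.28, 12.31 and 13.44 in OS_493H, OS_494H and OS_716H and at 12.38, 11.78 and 12.31 in the cultures. It did not pass (0.85, limma adjusted p = 0.105), and passed without OS_494H (adjusted p = 0.00725). Of 10 measured integrin subunits of fibrillin and fibulin receptors, Itga5 rose 2.37-fold, Itgb3 fell 2.18-fold and Itga8 fell 1.63-fold. Each of these calls was lost on leaving out any 1 of 4 arrays, for Itgb3 OS_716H among them. Itgav, Itgb1 and Itgb5 differed by 0.31, 0.06 and 0.06 and did not pass, though Itgav passed without OS_716H (adjusted p = 0.0185). Matrix partners (20% in each direction) and receptors (10% higher and 20% lower) were called at shares not far from those of all genes (13.2% and 11.4%).

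**Figure D4:**
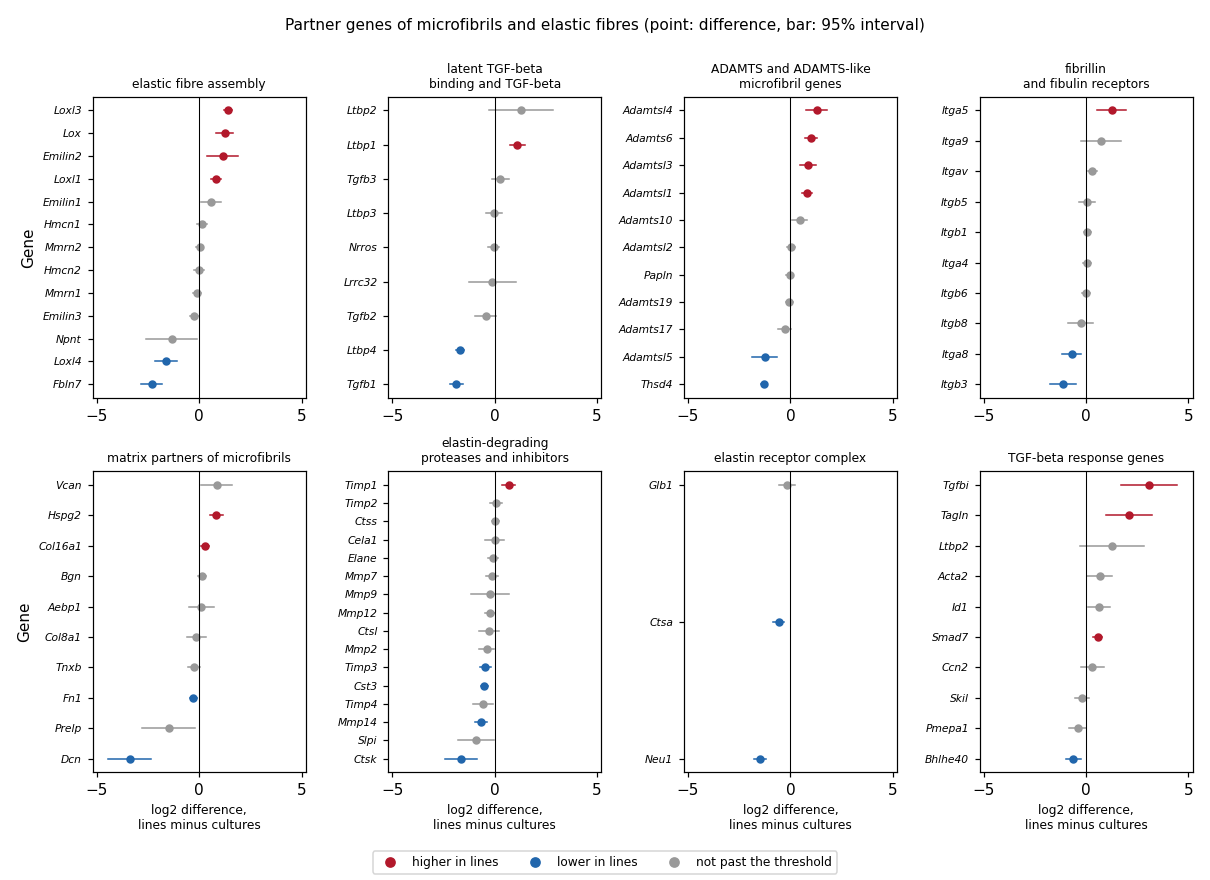
Log2 difference between osteosarcoma lines and osteoblast cultures for the partner genes, by list. Points are differences and bars 95% intervals from limma (n = 3 each). Red genes are called higher in the lines, blue genes lower, and grey genes did not pass. Lists hold calls in both directions except the elastin receptor complex, where 2 of 3 genes were lower.

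Lists of cell type markers held higher calls, lower calls or none, against 13.2% of all genes called higher and 11.4% lower. Of 8 measured smooth muscle markers, 3 rose (37.5%), namely Cnn1 28.1-fold, Tagln 4.25-fold and Smtn 1.63-fold. Myh11, Des, Lmod1 and Actg2 differed by 0.06, -0.18, 0.15 and 0.14 and did not pass. Acta2, the highest marker of this list on each array, differed by 0.67 and did not pass (limma adjusted p = 0.105). It passed without culture 2 (adjusted p = 0.00714). The summed linear signal of the 8 markers, of which Acta2 was the largest term, was 19796 to 27562 in the lines and 8276 to 16022 in the cultures. Of 6 measured markers of adventitial fibroblasts, 3 rose (50%), namely Thy1 (26.2-fold), Cd34 (19.7-fold) and Has1 (1.40-fold). Pi16, Dpp4 and Pdgfra differed by 0.06 to 0.07 and did not pass. The sums of the 6 were 10357 to 17814 in the lines and 4890 to 6750 in the cultures. Of 8 measured adipocyte markers 7 fell (87.5%), with sums of 2102 to 3448 in the lines and 16528 to 28828 in the cultures. Adipoq fell 61.6-fold, Cd36 37.5-fold, Retn 27.0-fold, Plin1 9.48-fold, Fabp4 8.13-fold, Cidec 4.02-fold and Pparg 3.53-fold. Lep differed by -0.33 and did not pass. Of 8 measured osteoblast markers, 4 fell (50%), though 1 of them, Pth1r, did not on leaving out any 1 array except OS_716H. Bone sialoprotein (Ibsp), also among the 4, was at 7.07 ± 0.99 in the lines and 13.23 ± 0.40 in the cultures (SD, n = 3 each). Phex and Dmp1, the rest of the 4, fell 26.6- and 20.6-fold. The type I collagen genes Col1a1 and Col1a2 differed by -0.07 and -0.03 and did not pass. None of 6 endothelial, 6 blood cell, 6 chondrocyte and 6 tendon markers passed the test in limma, though 3 tendon markers and 1 blood cell marker had an unadjusted p under 0.05. The tendon markers Tnmd and Fmod passed without OS_716H, and Egr1, Mkx and the endothelial marker Tek without OS_494H. Pdgfra passed without OS_494H too (0.68, adjusted p = 0.0262), and the osteoblast marker Alpl without OS_716H (-2.19, adjusted p = 0.0183). Smtn and Tagln lost their calls without culture 1 or culture 3, Tagln also without OS_716H, and Has1 without culture 1. The part of these cells or states in the higher microfibril genes was not tested. On arrays of whole cultures, fewer cells of a type and less RNA per cell cannot be told apart.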

How the data were processed

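Total RNA (Trizol extraction and column cleanup, per the labels' protocols) was hybridised to 1-colour arrays. The authors deposited log2 expression values for 35556 probe sets, and the submitters' processing notes name RMA and mm9. Which software ran it is not given in the sources used here. The method corrects background, equalises the arrays and summarises probes on a log scale, which compresses large differences. Depth does not apply to arrays, and 3 arrays per group limit the precision.

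Groups came from the sample titles. Probe sets with 1 gene symbol in the platform annotation (21789, with 1621 holding several and 12146 not listed) gave 19938 genes, each by its probe set with the highest mean over the 6 arrays. Differences are lines minus cultures, fitted over all genes with limma 3.58.1 in R 4.3.3 (lmFit, eBayes, two-sided), with Benjamini-Hochberg adjustment over all genes. The fit was tested on simulated data. Lists were described by counts, with no test of a list. The members, lists and naming rule were chosen with earlier results of these data known. The rule names every member, all genes of the elastic fibre assembly list, up to 4 called genes of each partner list, and called or highest markers. The highest uncalled markers are named for some lists only. Uncalled genes outside it (Ltbp2, Vcan, Itgav, Itgb1, Itgb5, Glb1 and single markers) were chosen after their values were seen. Alternatives were other scalings, filters, moderation, weights, probe set choices and thresholds, cultures 1 and 3 averaged, and each array left out. Marker sums add 2 to the power of each log2 value.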

Additional observations from a re-analysis of the deposited data

How the results depend on the processing

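The median difference of the members stayed between 1.01 and 1.50 under all 16 alternatives. The brightness filter, intensity trend, robust moderation, a spread per group and the probe set choices leave every member's difference unchanged by construction. The median was 1.26 under each of these, which bear only on the adjusted p. Fbn2, Mfap5 and Fbln5 kept direction and call under each of 16 (adjusted p up to 0.00741, 0.0234 and 0.0483). With the mean of cultures 1 and 3 as 1 sample, 3 members were called higher, and Fbln1 (2.26, adjusted p = 0.0701), Fbln2 (1.42, 0.0827) and Efemp1 (1.20, 0.0643) were not. At an adjusted p under 0.01, 2 members were called. The share of all genes called was not taken at this threshold or with cultures 1 and 3 averaged. These counts therefore have no background beside them. Array weights called Mfap4 (0.55). Eln turned to 0.014 after quantile normalisation and 0.0098 after median centring. After median centring 2 receptor genes were called higher and 1 matrix partner lower. The cause of these changes was not tested.

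On leaving out 1 array, 3 to 8 members were called higher and 0 lower, while 1533 to 2796 of all genes were called higher (2622 with all arrays). Differences ranged from 0.34 to 1.45 for Mfap2, 0.26 to 0.66 for Mfap4, -0.10 to 0.013 for Eln, 1.99 to 2.94 for Fbln1, 1.16 to 1.81 for Fbln2 and 0.93 to 1.48 for Efemp1. Called genes numbered 1 to 2 higher for TGF-beta binding, 1 to 2 lower for the ADAMTS list, 0 to 2 higher and 0 to 1 lower for receptors, 1 to 2 higher and 1 to 3 lower for matrix partners, 0 to 1 higher and 2 to 5 lower for proteases and inhibitors, 1 to 3 lower for the elastin receptor complex and 0 to 1 lower for TGF-beta response genes. Filtering to genes whose higher group mean lay above the median of all values (7.53) kept all 9 members. Fbn2 and Mfap4 passed this filter only through the lines, with culture means of 6.86 and 7.16. The filter is therefore no check on their rise. No paired analysis was possible, because each line came from a tumour and the cultures are 1 other cell line, with no pairing in the labels.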

Other observations

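Of the elastin-degrading proteases, Ctsk and Mmp14 fell in the osteosarcoma lines. Of the protease inhibitors, Cst3 and Timp3 fell and Timp1 rose, and 2 genes of the receptor complex that senses elastin fragments fell. In all, of 16 measured elastin-degrading proteases and protease inhibitors, 4 fell and 1 rose, against 11.4% lower and 13.2% higher over all genes. Cathepsin K (Ctsk), a collagenase and elastase of osteoclasts and fibroblasts, was at 10.36, 9.32 and 10.22 in OS_493H, OS_494H and OS_716H and at 11.78, 11.15 and 11.90 in the cultures, a fall of 3.13-fold (limma adjusted p = 0.0114, and 0.053 without culture 1). The membrane protease Mmp14 fell 1.59-fold, cystatin C (Cst3) 1.42-fold and the Efemp1-binding inhibitor Timp3 1.37-fold. The inhibitor Timp1 rose 1.60-fold, but not past the threshold when culture 1 was left out (adjusted p = 0.0528), and Timp3 lost its call without any 1 array except OS_493H (up to 0.121). Of the 3 genes of the elastin receptor complex, Neu1, a sialidase, fell 2.79-fold (8.56 ± 0.04 in the lines and 10.04 ± 0.24 in the cultures, SD, n = 3 each). Ctsa, its protective protein, fell 1.48-fold, which did not pass when either culture 1 or culture 3 was left out (adjusted p up to 0.0603), and Glb1 differed by -0.18 and did not pass. Without OS_716H, Glb1 differed by -0.38 and passed (adjusted p = 0.0197).

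Of 10 measured TGF-beta response genes, 3 rose (30%) and 1 fell (10%), against 13.2% and 11.4% over all genes. Tgfbi, a secreted adhesion protein, was at 11.61, 11.24 and 13.50 in OS_493H, OS_494H and OS_716H, against 8.92, 9.40 and 8.74 in the cultures, a rise of 8.54-fold (limma adjusted p = 0.00975, up to 0.0448 on leaving out 1 array). Smad7, a feedback inhibitor of the pathway, rose 1.49-fold, and the third that rose was Tagln. Bhlhe40 fell 1.53-fold, a call lost without any 1 array except OS_494H (adjusted p up to 0.0928). Among the lines, Tgfbi and Smad7 were lowest in OS_494H, whereas Tagln and Bhlhe40 were highest in it. For Tgfbi the line that stood apart was OS_716H, at 13.50.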
